A study of Homo sapiens with 46 samples.

Results

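RNA held on chromatin was compared with RNA released into the nucleoplasm, the soluble part of the nucleus, in ectoderm cells made in culture from human pluripotent stem cells (hPSC). The libraries were chosen by label: 3 of ectoderm chromatin and 3 of ectoderm nucleoplasm, 6 of the 46 libraries of the series. Counts were taken on the transcript assembly made for ectoderm and summed per gene. The series holds libraries of cytoplasm, nucleus, nucleoplasm and chromatin from hPSC and from the 3 germ layers grown out of them, ectoderm, endoderm and mesoderm. Both groups came from H1, an established hPSC line, so the model is 1 line. The cells of both groups grew for 5 days in DMEM/F12 with 15% KOSR (a serum replacement), 2 µM A83-01 (an inhibitor of TGF-beta type I receptors), 2 µM PNU-74654 (an inhibitor of the beta-catenin and TCF interaction) and 2 µM dorsomorphin (an inhibitor of BMP receptors). The groups differ in how nuclei were split. Nuclei were lysed in a buffer with NP-40 and urea and spun, and the supernatant gave nucleoplasm and the pellet gave chromatin. The buffers of both held α-amanitin, a blocker of RNA polymerase II. The design text of the series speaks of actinomycin D, another blocker of transcription, but no label says which libraries were treated with it, so whether these cells had it is not known. No label says that the 3 libraries of a group came from separate cultures, so p-values measure only the spread between these libraries.

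Chromatin RNA is known to hold nascent transcripts still joined to the polymerase, transcripts with introns not yet removed, and noncoding RNAs that act where they are made. Nucleoplasmic RNA holds messages and noncoding RNAs that have been cut from the template and are on their way to the pores, to nuclear bodies or to decay. Membranes of the endoplasmic reticulum (ER) that run on from the outer nuclear envelope, and mitochondria, are known to travel with nuclei in detergent preparations.

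Library totals ran from 12790326 to 13508051 counts on chromatin and from 8473955 to 16341050 in nucleoplasm. Pearson's r of log2 CPM (counts scaled to library size with TMM factors) across genes, which are not independent replicates, lay between 0.977 and 0.988 within each group. Chromatin replicate 2 stood apart: chi-squared per degree of freedom against the other chromatin libraries was 34.8 and 37.7, against 4.18 between those. It held 7.35% of its counts in transcripts without a gene, against 1.06% and 1.33%. Libraries labelled nucleus and cytoplasm, which enter the fit through the choice of genes tested, the TMM factors and the estimate of the spread, went against their labels on known markers. MALAT1, a noncoding RNA of nuclear speckles, was at 196 ± 145 CPM in the libraries labelled nucleus and 1667 ± 433 CPM in those labelled cytoplasm (SD, n = 3). Mitochondrially encoded mRNAs made 7.03% to 9.10% of the counts in the first and 0.861% to 1.32% in the second. With the 6 chromatin and nucleoplasm libraries alone, 8487 genes were called instead of 6771 (given next), and 6737 of 6744 retested calls were the same.

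Of 15668 genes tested, 3368 (21.5%) rose on chromatin and 3403 (21.7%) fell, 43.2% in all, at an adjusted p under 0.05. All differences are log2 chromatin minus nucleoplasm ± the standard error of the fit, with 3 libraries a group. The chromatin libraries lay above every nucleoplasm library for 4754 genes (30.3%) and below for 4835 (30.9%). A change of at least 2-fold among the calls was seen for 1214 genes on chromatin (7.75%) and 710 in nucleoplasm (4.53%). The median over all genes was -0.02. These directions are relative to the scaling: with total counts in place of TMM factors the median was 0.17, and 67.5% of the calls were higher on chromatin against 49.7%. On the authors' TPM scale (length-corrected shares of a library) the median was 0.49 and 96.4% were higher, and 1421 of the 6771 genes changed sign. A value is therefore best read beside the median of all genes on the same scale. Counts of called list members are likewise best read beside 21.5% and 21.7%, and counts without overlap beside 30.3% and 30.9%. For counts given without chromatin replicate 2, 2546 of 15898 genes then rose and 3448 fell. Fewer rises also came without other libraries: 2312 and 2357 without chromatin replicates 1 and 3, and 2744, 2787 and 2427 without nucleoplasm replicates 1, 2 and 3.

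Among genes with a symbol in the deposited table, those with the largest rise on chromatin were mostly of modest level and of several kinds. KLHL17, which encodes an actin-binding kelch protein (chr1:960587-965715, plus strand, hg38, GENCODE release 29), stood at 125, 139.6 and 139 CPM in the chromatin libraries and 27.4, 21.3 and 32.7 CPM in the nucleoplasm libraries. Its difference was 2.30 ± 0.18, adjusted p = 3.65e-06. RHPN1 stood at 286, 322 and 305 CPM on chromatin against 71.3, 50.8 and 81.1 CPM in nucleoplasm (2.16 ± 0.20, adjusted p = 7.64e-06). In both genes every chromatin library lay more than 3-fold above every nucleoplasm library. ANO9, of the anoctamin family of scramblases and channels (chr11:417933-442011, minus strand), stood at 66.4, 79.6 and 70.1 CPM on chromatin against 16.1, 16.5 and 17.8 CPM in nucleoplasm (2.10 ± 0.15, adjusted p = 3.65e-06). AGER, the receptor for advanced glycation end products (chr6:32180968-32184324, minus strand), stood at 175, 195 and 181 CPM on chromatin against 47.5, 37.0 and 50.1 CPM in nucleoplasm (2.03 ± 0.18, adjusted p = 7.2e-06). Neither gene's libraries overlapped between the fractions. MAMDC4 (2.04), the noncoding ELOA-AS1 (2.23), and the pseudogenes MMP23A (2.03), NPIPP1 (2.13), MAPK8IP1P2 (2.06) and VN1R81P (2.50) completed the set with a microRNA row and a ribosomal RNA row described further on. Another 5 rows of at least the same size carry only an identifier in the deposited table and were left out of the set: FP236383.2 (5.66) and FP671120.3 (5.24), described with the ribosomal RNA repeats, RF01518 (identifier ENSG00000276312; 5.09, and 2.92 without chromatin replicate 2), AC120498.10 (2.41, called in 2 of 6 leave-one-out fits) and AL157871.5 (2.09). For each gene of the set itself the adjusted p stayed under 0.05 in 6 leave-one-out fits, each without 1 library. The use of strand in counting is not given in the sources used here, so reads of overlapping genes cannot be told apart.

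Among the most abundant RNAs that rose on chromatin were messages for nuclear speckle, matrix and developmental proteins. SRRM2, a scaffold of nuclear speckles, stood at 2490.4, 2122 and 2464 CPM in the chromatin libraries and 1548, 1698 and 1646 CPM in the nucleoplasm libraries (0.53 ± 0.13, adjusted p = 0.00438). LAMA5, a laminin chain, stood at 1829, 1369.9 and 1875 CPM on chromatin against 793, 697 and 853 CPM in nucleoplasm (1.11 ± 0.15, adjusted p = 6.73e-05). LENG8 (0.80), SETD5 (0.76), for a chromatin regulator, and SOX11 (0.75 ± 0.18, adjusted p = 0.00456), for a transcription factor of neural progenitors, rose too. SOX11 stood at 1283, 1456 and 1296 CPM on chromatin against 860.0, 735 and 805 CPM in nucleoplasm, with no overlap between the fractions. TPM1 (0.45), for a tropomyosin, was called in 3 of 6 leave-one-out fits, and DDX17 (0.44), MACF1 (0.69) and SPTAN1 (0.36) in 1 of 6.

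**Figure D1:**
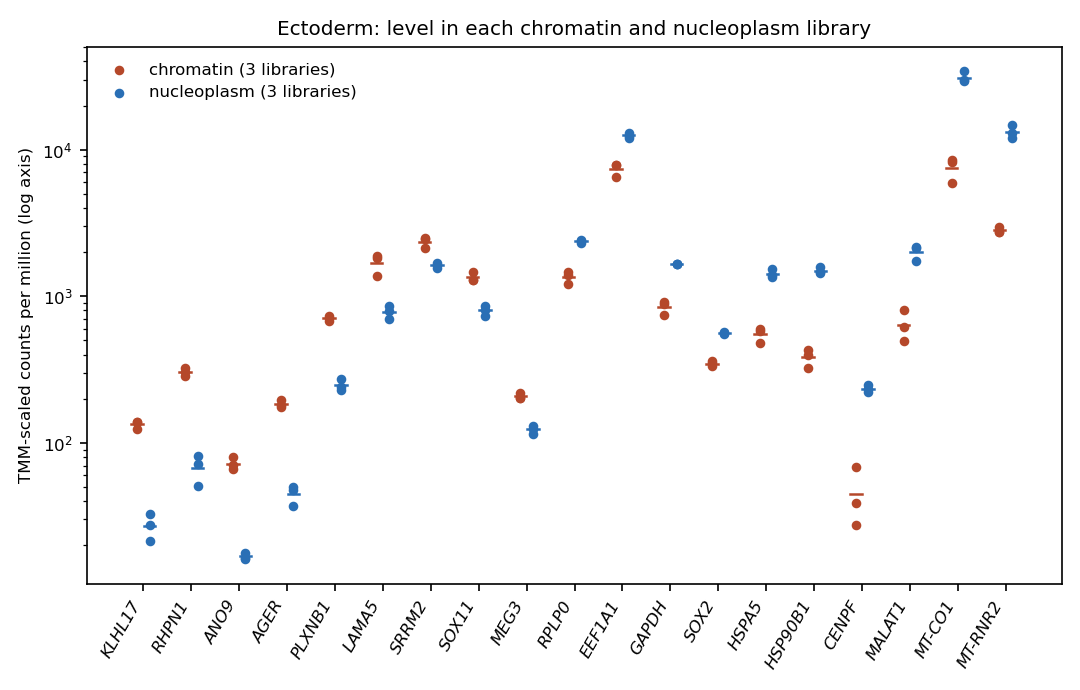
Level of 19 genes in each of the 3 chromatin and 3 nucleoplasm libraries of ectoderm, in TMM-scaled CPM on a log axis; points are libraries and bars are means. The chromatin points of KLHL17 lie at 125, 139.6 and 139 above those of nucleoplasm, and those of MT-CO1 lie below.

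RNAs made in mitochondria showed the deepest fall. All 13 mitochondrially encoded mRNAs and both mitochondrial rRNAs fell on chromatin, against 21.7% of all genes, with a median of -2.06 for the mRNAs that stayed negative on the TPM scale (-1.46). MT-CO1, for a subunit of cytochrome c oxidase, stood at 8547, 5902 and 8203 CPM in the chromatin libraries and 29189, 29711 and 34204 CPM in the nucleoplasm libraries (-2.04 ± 0.22, adjusted p = 2.1e-05). MT-ND4, for a subunit of complex I, stood at 2239.9, 1595 and 1924 CPM on chromatin against 9061, 9539 and 11538 CPM in nucleoplasm (-2.39 ± 0.22, adjusted p = 7.85e-06). MT-RNR2, the large mitochondrial rRNA, stood at 2966, 2749.8 and 2744 CPM on chromatin against 12105, 12964 and 14626 CPM in nucleoplasm (-2.23 ± 0.19, adjusted p = 5.48e-06). In all 3 the lowest nucleoplasm library was over 3-fold above the highest chromatin library. MT-CO2 (-2.40), MT-ATP6 (-2.44), MT-ND4L (-2.45), MT-ND3 (-2.30), MT-CO3 (-1.93), MT-ND5 (-1.77) and MT-RNR1 (-1.94) lay close to them. The 13 mRNAs took 1.68% to 2.33% of the counts of a chromatin library and 7.04% to 8.55% of a nucleoplasm library. These RNAs are made in mitochondria, and the part that organelle RNA took in other differences was not tested.

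Messages for proteins of the ER lumen and translocation were lower on chromatin as a group. Of 38 genes in this list, 37 fell and 1 was not called, with a median of -0.96 (-0.29 on the TPM scale). In all 38 every chromatin library lay below every nucleoplasm library, against 30.9% of all genes. HSP90B1, the ER form of the HSP90 chaperone, stood at 394, 429.7 and 326 CPM in the chromatin libraries and 1430.3, 1459 and 1575 CPM in the nucleoplasm libraries (-1.96 ± 0.19, adjusted p = 1.06e-05). HSPA5, the main ER chaperone, stood at 583, 481 and 595 CPM on chromatin against 1400.4, 1355 and 1532 CPM in nucleoplasm (-1.37 ± 0.13, adjusted p = 9.28e-06). For both, every nucleoplasm library lay above every chromatin library. CALR, for the lectin chaperone calreticulin, differed by -0.97 ± 0.15, adjusted p = 0.000191. The group took 0.603% to 0.691% of the counts on chromatin and 1.17% to 1.24% in nucleoplasm, and mitochondrial mRNAs moved the same way.

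Genes for the cell surface and the matrix split. Of 94 integrins, cadherins and protocadherins, 45 fell and 6 rose, with a median of -0.47 that was 0.11 on the TPM scale. CDH1, for E-cadherin, stood at 170.3, 143 and 199 CPM in the chromatin libraries and 387, 382 and 438 CPM in the nucleoplasm libraries (-1.24 ± 0.13, adjusted p = 1.81e-05). PCDH18 (-1.06) and FAT1 (-0.57, 0.11 in TPM), for cadherin-family adhesion proteins, fell too. ITGA7, for an integrin chain that binds laminin, went the other way at 293, 319.6 and 294 CPM on chromatin against 157, 144 and 175 CPM in nucleoplasm (0.93 ± 0.10, adjusted p = 1.8e-05, -0.16 over Ensembl-listed transcripts alone), with CELSR1 (0.87) and CELSR3 (0.58), large cadherins of planar cell polarity. The libraries of ITGA7 did not overlap. Of 77 matrix genes, 34 fell and 8 rose, with a median of -0.36 (0.23 on the TPM scale). GPC3, for a heparan sulphate proteoglycan, stood at 595, 460.0 and 639 CPM on chromatin against 1471, 1468 and 1627 CPM in nucleoplasm (-1.43 ± 0.15, adjusted p = 1.78e-05). FBN2 (-1.03 ± 0.13, adjusted p = 3.94e-05) and LAMB1 (-0.87) fell, while their relatives FBN3 (0.98 ± 0.11, adjusted p = 2.3e-05) and LAMA5 (1.11) rose along with COL27A1 (1.35 ± 0.13, adjusted p = 1.12e-05), a fibrillar collagen. FBN2 and FBN3, both for fibrillins of microfibrils, thus lay on opposite sides: FBN2 stood at 617, 510.4 and 685 CPM on chromatin against 1190.1, 1189.5 and 1323 CPM in nucleoplasm and FBN3 at 479, 392 and 489 CPM on chromatin against 221, 227 and 243 CPM in nucleoplasm.

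Ribosomal protein messages form a family under shared control: many begin with a C and a run of pyrimidines, the terminal oligopyrimidine (TOP) tract, through which translation is tied to growth signals. The sequences shown are the 30 bases around the annotated start, 15 on each side, of abundant members that fell, with the tract in capitals, and of RPL10, in which no tract was found. They come from RefSeq (GRCh38.p14) at chr12:120201097-120201126 (RPLP0, minus strand), chr19:49487593-49487622 (RPL13A, plus), chr9:19380222-19380251 (RPS6, minus), chr3:39406705-39406734 (RPSA, plus), chr6:33272060-33272089 (RPS18, plus) and chrX:154398050-154398079 (RPL10, plus).
RPLP0: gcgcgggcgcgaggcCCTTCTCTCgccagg
RPL13A: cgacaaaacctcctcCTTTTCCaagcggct
RPS6: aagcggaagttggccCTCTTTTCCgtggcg
RPSA: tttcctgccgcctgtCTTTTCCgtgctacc
RPS18: cgcgtcacttccgctCTCTCTTCCacagga
RPL10: tttttccactctcagaaatatacgtctgtc
The pattern searched was a C followed by at least 4 bases that are each C or T, beginning within 5 bases of the start, on the sense strand only. Only the first listed start of each gene was searched, so a miss does not show that a message lacks the tract. It was found in 53 of 68 ribosomal protein genes with a promoter in the table (77.9%), against 23.0% of the genes tested and 21.1% of all promoters. Among called genes it was found in 24.7% of those that fell and 20.5% of those that rose. It was found in 5 of 7 genes of the CCT chaperonin (71.4%), 37.3% of translation factors, 30.3% of genes for the ER lumen and translocation and 21.7% of mitochondrial ribosomal proteins. RPL10, RPS6, RPSA, RPS18 and, in the text that follows, RPS3 were picked after their values were seen.

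Ribosomal protein messages were lower on chromatin almost throughout. Of 85 cytosolic ribosomal protein genes, 75 fell and 10 were not called, with a median of -0.76 (-0.11 on the TPM scale, against 0.49 for all genes). In 84 of them the chromatin libraries lay below all nucleoplasm libraries, against 30.9% of all genes. RPLP0, a protein of the ribosomal stalk, stood at 1391, 1216 and 1473 CPM in the chromatin libraries and 2437, 2325 and 2378 CPM in the nucleoplasm libraries (-0.81 ± 0.21, adjusted p = 0.00720). RPL13A stood at 1337, 1393 and 1348 CPM on chromatin against 2228, 2076 and 2216 CPM in nucleoplasm (-0.68 ± 0.19, adjusted p = 0.0119), and RPS6, the ribosomal protein phosphorylated by S6 kinase, at 470.0, 452 and 461 CPM on chromatin against 856, 858 and 844 CPM in nucleoplasm (-0.89 ± 0.18, adjusted p = 0.00156). In these 3 genes the fractions were separated by a gap larger than the spread within either. RPL10, at whose listed start the search found no tract, fell too (-0.66 ± 0.20, adjusted p = 0.0167, 0.01 in TPM), as did RPSA (-0.68, called in 5 of 6 leave-one-out fits), RPS18 (-0.87) and RPL3 (-0.76). RPS3 was not called (-0.42 ± 0.19, adjusted p = 0.0853). On the TPM scale, where 293 of all genes fell, 5 of the 85 did.

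Messages of other abundant housekeeping machines fell alongside. All 8 subunit genes of the CCT chaperonin, which folds actin and tubulin, fell (median -0.73). CCT8 stood at 103, 105 and 97.7 CPM in the chromatin libraries and 216, 243 and 224 CPM in the nucleoplasm libraries (-1.16 ± 0.10, adjusted p = 5.43e-06). Its clients went with it: 13 of 20 actin and tubulin genes fell (median -0.74), among them ACTB (-0.84 ± 0.18, adjusted p = 0.00229), ACTG1 (-0.76) and TUBB (-0.87), and 1 rose, TUBG2 (0.62, -0.43 over Ensembl-listed transcripts alone), a centrosomal gamma-tubulin. Medians of both groups stayed negative on the TPM scale (-0.05 and -0.06). Of 80 nuclear genes for the respiratory chain 51 fell and 2 rose (median -0.70), with ATP5F1A (-0.52, 0.15 in TPM) and ATP5MC2 (-0.75) of ATP synthase among the first and NDUFV3 (0.88 ± 0.13, adjusted p = 0.000127), a complex I accessory subunit, among the second. NDUFV3 stood at 56.2, 64.1 and 51.9 CPM on chromatin against 32.6, 26.6 and 33.8 CPM in nucleoplasm. Proteasome subunits fell in 25 of 37 genes and 12 were not called, with a median of -0.52 that was 0.01 on the TPM scale, and PSMD1 differed by -1.01 ± 0.11, adjusted p = 2.12e-05. Glycolytic genes fell in 13 of 19, with a median of -0.63 (0.04 on the TPM scale). GAPDH stood at 892, 743 and 912 CPM on chromatin against 1659.7, 1651 and 1669.5 CPM in nucleoplasm (-0.97 ± 0.21, adjusted p = 0.00274). ENO1 (-0.69) fell and its neuronal paralogue ENO2 (0.38) rose, though ENO2 was called in 1 of 6 leave-one-out fits. The glucose transporters SLC2A3 (-0.95 ± 0.12, adjusted p = 5.98e-05) and SLC2A1 (-0.77) fell.

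Translation factors gave 39 falls and 3 rises in 64 genes, with a median of -0.58 that was 0.07 on the TPM scale. EEF1A1, the elongation factor that delivers aminoacyl-tRNA, stood at 7800.4, 6528 and 7878 CPM in the chromatin libraries and 12483, 13067 and 11931 CPM in the nucleoplasm libraries (-0.76 ± 0.20, adjusted p = 0.00727). EEF1G (-0.88), EEF2 (-0.60, 0.07 in TPM; called in 4 of 6 leave-one-out fits) and EIF4A2 (-0.56) fell too. Those that rose were regulators: EIF2B5 (0.85 ± 0.12, adjusted p = 0.000137), a subunit of the exchange factor for eIF2, EEF2K (0.61), the kinase of EEF2, and EIF4EBP3 (0.91, -0.22 over Ensembl-listed transcripts alone), of the family that binds eIF4E. Among 35 aminoacyl-tRNA synthetases 15 fell and 7 rose (median -0.26, 0.36 in TPM). VARS2, which charges valine tRNA in mitochondria, stood at 262, 283 and 273 CPM on chromatin against 111, 93.2 and 122 CPM in nucleoplasm (1.33 ± 0.11, adjusted p = 4.81e-06), with no overlap. The bifunctional cytosolic enzyme EPRS1 (-0.95 ± 0.12, adjusted p = 4.54e-05) and mitochondrial IARS2 (-1.0) fell. Of 78 mitochondrial ribosomal proteins 30 fell and 4 (0 without chromatin replicate 2) rose, with a median of -0.36 (0.22 on the TPM scale).

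Several long messages of cell division were among the deepest falls outside mitochondria. CENPF, for a kinetochore protein (chr1:214603195-214664588, plus strand), stood at 38.7, 68.1 and 27.5 CPM in the chromatin libraries and 222, 248 and 234 CPM in the nucleoplasm libraries (-2.39 ± 0.32, adjusted p = 8.14e-05). KIF20B, a mitotic kinesin, differed by -2.29 ± 0.28, adjusted p = 4.06e-05, and SGO2, a protector of centromeric cohesion, by -2.26 ± 0.27, adjusted p = 3.72e-05. Chromatin replicate 2 was the highest of the chromatin libraries for all 3, and the groups did not overlap. Fits that left out 1 library gave -2.90 to -2.21 for CENPF, -2.77 to -2.11 for KIF20B and -2.68 to -2.15 for SGO2. Of 31 mitosis genes 24 fell and 1 rose (median -0.66, and -0.03 on the TPM scale), with TOP2A (-1.26 ± 0.20, adjusted p = 0.000329), the topoisomerase of mitotic chromosomes, and TPX2 (-0.84), a spindle factor, among the falls and PRC1 (0.35, -0.24 over Ensembl-listed transcripts alone, called in 3 of 6 leave-one-out fits), the bundler of midzone microtubules, as the rise. TPR, which forms the nuclear basket of the pore, stood at 43.4, 85.5 and 31.3 CPM on chromatin against 202, 223 and 211 CPM in nucleoplasm (-1.99 ± 0.32, adjusted p = 0.000281, and -2.58 to -1.79 with 1 library left out), and 13 of 31 nuclear pore genes fell while 2 (1 without chromatin replicate 2) rose (median -0.30, 0.37 in TPM). ANKRD12 (-2.39), TFPI (-2.35), for an inhibitor of tissue factor, and CCPG1 (-2.30), an ER-phagy receptor, were the other large falls. TFPI stood at 10.1, 11.1 and 9.80 CPM on chromatin against 48.6, 49.5 and 59.1 CPM in nucleoplasm.

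Short noncoding genes and transcripts within other genes leaned to chromatin. Of 82 tested genes for small structural RNAs (spliceosomal, nucleolar, ribosomal and Y RNAs) 32 rose, against 21.5% of all genes, and 50 were not called, with a median of 0.82 (0.68 on the TPM scale, against 0.49 for all genes). SNORA11E, a nucleolar RNA gene on X, stood at 164, 186 and 166 CPM in the chromatin libraries and 52.6, 39.4 and 57.1 CPM in the nucleoplasm libraries (1.79 ± 0.18, adjusted p = 1.26e-05). SNORD86 (1.02 ± 0.20, adjusted p = 0.00129) and SNORD116-4 (0.85 ± 0.24, adjusted p = 0.0119), of the imprinted cluster at 15q, rose too, and SNORD116-4 was called in 3 of 6 leave-one-out fits. By gene type in GENCODE release 29, 42.0% of 50 snRNA genes and 33.3% of 33 snoRNA genes rose. Sense-intronic transcripts rose in 42.9% of 84 genes, and unprocessed pseudogenes in 53.1% of 81. Protein-coding genes rose in 19.7% and fell in 25.2% of 12915. A small RNA inside an intron shares its position with the host transcript, and the count of such a gene cannot be told apart from reads of the host.

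Rows named for microRNA genes rose on chromatin more often than they fell. MicroRNAs are cut from hairpins in longer transcripts, first in the nucleus by Drosha and then in the cytoplasm by Dicer, and bases 2 to 8 of the mature strand, the seed, pair with targets. The mature sequences shown belong to the microRNA rows and host genes whose values are given next, with the seed in capitals. RefSeq (GRCh38.p14) places them at chrX:45746180-45746202 (miR-221-3p, minus strand), chrX:45747036-45747056 (miR-222-3p, minus), chr19:13836595-13836615 (miR-23a-3p, minus), chr9:95085265-95085287 (miR-23b-3p, plus), chr1:9151735-9151756 (miR-34a-5p, minus), chr17:59151149-59151171 (miR-301a-3p, minus), chr9:123111561-123111583 (miR-600, minus), chr14:105150840-105150864 (miR-6765-5p, minus) and chr16:21506064-21506086 (miR-3680-3p, minus).
miR-221-3p: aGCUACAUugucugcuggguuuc
miR-222-3p: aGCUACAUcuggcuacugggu
miR-23a-3p: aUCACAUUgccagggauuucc
miR-23b-3p: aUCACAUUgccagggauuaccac
miR-34a-5p: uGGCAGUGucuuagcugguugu
miR-301a-3p: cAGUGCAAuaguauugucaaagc
miR-600: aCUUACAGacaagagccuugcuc
miR-6765-5p: gUGAGGCGgggccaggagggugugu
miR-3680-3p: uUUUGCAUgacccugggaguagg
miR-221-3p and miR-222-3p, which lie in 1 host transcript, share the seed GCUACAU. miR-23a-3p and miR-23b-3p, from different chromosomes, share the seed UCACAUU. A matching mature sequence was found for 66 of the 69 microRNA rows.

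Of the 69 microRNA rows tested, 35 rose (50.7%, against 21.5% of all genes) and 4 fell (5.80%, against 21.7%), with a median of 1.00. Within a gene of the same strand lay 61 of the 69, and all 35 that rose. MIR6765, inside JAG2, stood at 19.7, 21.4 and 22.9 CPM in the chromatin libraries and 3.54, 2.44 and 3.93 CPM in the nucleoplasm libraries (2.66 ± 0.39, adjusted p = 0.000154). MIR3680-1, inside the pseudogene SMG1P3, stood at 7.59, 8.31 and 8.46 CPM on chromatin against 1.33, 1.16 and 1.50 CPM in nucleoplasm (2.58 ± 0.27, adjusted p = 1.55e-05). The fractions of both rows were far apart, while their hosts differed by 0.89 ± 0.60, adjusted p = 0.246 for JAG2 and 0.69 ± 0.18, adjusted p = 0.00832, called in 5 of 6 leave-one-out fits for SMG1P3. MIR301A, at 2.59, 1.77 and 3.40 CPM on chromatin against 0.886, 0.465 and 0.374 CPM in nucleoplasm, rose (2.15 ± 0.47, adjusted p = 0.00254, but 0.48 in TPM, near the 0.49 of all genes) inside SKA2, which fell (-1.12 ± 0.14, adjusted p = 4.7e-05). MIR23B (0.94 ± 0.33, adjusted p = 0.0342, called in 2 of 6 leave-one-out fits) lay in AOPEP, which was not called (0.51 ± 0.22, adjusted p = 0.0840). Apart from MIR6765, the rows and hosts of this paragraph and MIR222HG and MIR23AHG were picked after their values were seen. These libraries count long RNA, so the values describe the stretch around a hairpin and not the mature microRNA.

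Host genes of microRNAs gave 10 rises (37.0%, against 21.5% of all genes) and 3 falls (11.1%, against 21.7%) in 27 tested. Their median was 0.44 (0.70 on the TPM scale, against 0.49 for all genes). MIR34AHG, the host of miR-34a and a known p53 target, stood at 120.2, 136 and 125 CPM in the chromatin libraries and 54.8, 43.4 and 52.4 CPM in the nucleoplasm libraries (1.34 ± 0.21, adjusted p = 0.000226). MIR600HG stood at 85.7, 90.2 and 89.7 CPM on chromatin against 40.3, 37.7 and 37.5 CPM in nucleoplasm (1.2 ± 0.16, adjusted p = 6.13e-05). Both were separated from nucleoplasm in every library. MIR222HG (1.03 ± 0.39, adjusted p = 0.0456) and MIR23AHG (0.62 ± 0.20, adjusted p = 0.0219) were called, but in 0 and 2 of 6 leave-one-out fits. MIR3171HG (-1.26, called in 5 of 6 leave-one-out fits), MIR4453HG (-0.80) and MIR4435-2HG (-1.07) fell.

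Antisense long noncoding RNAs (lncRNAs) seldom fell on chromatin. Of 300 genes named as antisense 69 rose (23.0%, near the 21.5% of all genes) and 17 fell (5.67%, against 21.7%), with a median of 0.27. FEZF1-AS1, antisense to the forebrain regulator FEZF1, stood at 316, 379 and 331 CPM in the chromatin libraries and 206, 218 and 228 CPM in the nucleoplasm libraries (0.65 ± 0.11, adjusted p = 0.000307). GABPB1-AS1 (0.92) was called in 0 of 6 leave-one-out fits. THUMPD3-AS1 (-0.77 ± 0.20, adjusted p = 0.00650) and MAPKAPK5-AS1 (-0.73 ± 0.13, adjusted p = 0.000637) fell. Genes named LINC rose in 34 of 163 (21 without chromatin replicate 2) and fell in 17, near the share of all genes for the first, with LINC02210 (0.75 ± 0.11, adjusted p = 0.000118) the clearest of the abundant ones. Divergent transcripts rose in 20 of 167 and fell in 17. Hosts of snoRNAs rose in 5 of 27 and fell in 7 (median -0.21, 0.33 in TPM), with SNHG15 (0.76 ± 0.12, adjusted p = 0.000277) on one side and GAS5 (-0.69 ± 0.15, adjusted p = 0.00296) on the other. GAS5 stood at 175, 192 and 168 CPM on chromatin against 265, 294 and 303 CPM in nucleoplasm.

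Among 18 lncRNAs known from the nucleus, 3 rose and 3 fell (16.7% each, under the 21.5% and 21.7% of all genes), and 12 were not called. MEG3, an imprinted lncRNA, stood at 218, 202 and 203 CPM in the chromatin libraries and 115, 131 and 125 CPM in the nucleoplasm libraries (0.75 ± 0.15, adjusted p = 0.00126). PVT1, of the MYC region, stood at 36.2, 37.4 and 37.3 CPM on chromatin against 13, 13.2 and 15.3 CPM in nucleoplasm (1.41 ± 0.22, adjusted p = 0.000284), and SNHG14 differed by 0.50 ± 0.15, adjusted p = 0.0177, called in 3 of 6 leave-one-out fits. MALAT1 went the other way, at 614, 809 and 491 CPM on chromatin against 2132, 1737 and 2154 CPM in nucleoplasm (-1.65 ± 0.46, adjusted p = 0.0109), with PURPL (-1.45 ± 0.34, adjusted p = 0.00401), a p53-induced lncRNA, and DANCR (-0.57, 0.03 in TPM, called in 5 of 6 leave-one-out fits). The 3 libraries of each fraction were separate for MALAT1, by more than 2-fold. NEAT1, the scaffold of paraspeckles, was not called (-0.45 ± 0.24, adjusted p = 0.155), nor was the imprinted KCNQ1OT1 (-0.16 ± 0.42, adjusted p = 0.788). Of 28 imprinted genes 12 fell, with DLK1 (-1.01 ± 0.19, adjusted p = 0.000825) and MEST (-0.97 ± 0.11, adjusted p = 2.56e-05) the most abundant, and 4 (2 without chromatin replicate 2) rose, with L3MBTL1 (1.24 ± 0.17, adjusted p = 8.93e-05), for a list median of -0.37 (0.15 in TPM). DLK1 and MEG3, neighbours in 1 imprinted domain, lay on opposite sides: DLK1 stood at 2325, 1831 and 2427 CPM on chromatin against 4775, 3714 and 4762 CPM in nucleoplasm.

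The 45S precursor of ribosomal RNA is cut in the nucleolus. Counts for 3 genes annotated inside its repeats on chromosome 21 were higher on chromatin and rested largely on 1 library. FP671120.3 (chr21:8210384-8211306, minus strand) lies within RNA45SN2, on the other strand, and stood at 476, 6765 and 452 CPM in the chromatin libraries and 117, 30.6 and 54.6 CPM in the nucleoplasm libraries (5.24 ± 1.04, adjusted p = 0.00134). Without chromatin replicate 2 the difference was 2.70. FP236383.2 (chr21:8393419-8394341, minus strand) lies within RNA45SN3 in the same way and stood at 193, 3398 and 209.9 CPM on chromatin against 46.5, 7.67 and 19.7 CPM in nucleoplasm, and its difference of 5.66 was 2.94 without that library (adjusted p = 0.00106). RNA5-8SN1, the 5.8S row of RNA45SN1, stood at 7.08, 199.8 and 9.13 CPM on chromatin against 0.738, 0.814 and 1.43 CPM in nucleoplasm (6.11 ± 1.40, adjusted p = 0.00343; 2.89 without it). Chromatin replicates 1 and 3 still lay above every nucleoplasm library in the 3 rows. In counts on the assembly combined over cell types FP236383.2 was at -1.83 and RNA5-8SN1 at 5.88. These repeats are near-identical, so which copy the reads came from is uncertain.

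Genes for the handling of RNA and chromatin did not move as 1 block. Kinases of the CLK group and relatives, which phosphorylate SR splicing factors, rose in 5 of 13 (3 without chromatin replicate 2), and the others were not called (median 0.19). CLK2, whose own message is known to keep introns, stood at 110.2, 114 and 109.6 CPM in the chromatin libraries and 45.5, 41.7 and 52.6 CPM in the nucleoplasm libraries (1.25 ± 0.11, adjusted p = 5.48e-06). CLK3 (0.58 ± 0.11, adjusted p = 0.00125) and SRPK1 (0.37; called in 0 of 6 leave-one-out fits) rose as well. SR splicing factors rose in 2 of 16 with SRSF6 (0.62 ± 0.13, adjusted p = 0.00203) and SRRM2, and 14 were not called. Genes for hnRNPs, which coat nascent RNA, fell in 15 of 30 and rose in 1, with a median of -0.38 (0.30 on the TPM scale). HNRNPA1 stood at 1225, 1283 and 1188 CPM on chromatin against 1833, 2146 and 1926 CPM in nucleoplasm (-0.68 ± 0.15, adjusted p = 0.00261), and HNRNPM (0.47) was the rise. Export factors rose in 9 of 25 and fell in 6, with MCM3AP (0.90 ± 0.09, adjusted p = 9.86e-06), for the scaffold of the TREX-2 complex, on one side and the cap-binding NCBP2 (-0.82 ± 0.12, adjusted p = 0.000163) on the other. Nonsense-mediated decay factors rose in 4 of 17 (23.5%, near the 21.5% of all genes, and 2 without chromatin replicate 2). They fell in 6 (35.3%, against 21.7%), with a median of -0.29 (0.35 in TPM). SMG5 (0.57) was among the rises and PNRC2 (-1.14) among the falls.

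Genes of chromatin regulation went both ways, and messages of histone variants were more often lower on chromatin. Polycomb genes, whose products silence developmental genes, rose in 10 of 34 and fell in 5 (median 0.13). PHF1, a reader that recruits the complex, stood at 205, 216 and 214 CPM in the chromatin libraries and 96.9, 82.8 and 100.0 CPM in the nucleoplasm libraries (1.18 ± 0.10, adjusted p = 5.48e-06). EZH2, the methyltransferase of the complex and picked after its value was seen, stood at 163, 165 and 156 CPM on chromatin against 90.1, 85.9 and 83.6 CPM in nucleoplasm (0.90 ± 0.13, adjusted p = 0.000162), and KDM2B (0.52) and PHC1 (0.47) rose. RBBP7 (-0.65 ± 0.11, adjusted p = 0.000538, 0.03 in TPM), a histone chaperone of the complex, fell. DNA methylation genes rose in 4 of 15 (26.7%, near the 21.5% of all genes). Among them DNMT3B (0.78 ± 0.11, adjusted p = 0.000112), the de novo methyltransferase of early embryonic cells, stood at 314, 268 and 309 CPM on chromatin against 171, 175 and 175 CPM in nucleoplasm. ZBTB33 (-0.84) fell. Variant histones fell in 6 of 11 and 5 were not called, with a median of -0.50 (0.18 on the TPM scale). H3-3B, for a replication-independent histone H3, stood at 271, 272 and 271 CPM on chromatin against 448, 483 and 430.3 CPM in nucleoplasm (-0.74 ± 0.11, adjusted p = 0.000228). Replication-dependent histones fell in 4 of 17 (23.5%, near the 21.7% of all genes), and 13 were not called. Zinc finger genes named ZNF rose in 90 of 459 (59 without chromatin replicate 2) and fell in 63, shares near or under those of all genes.

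In 5 signalling families rises took smaller shares than in all genes (21.5%), from 0% of Eph receptors and ephrins to 16.2% of Wnt genes. Falls took larger shares than in all genes (21.7%), from 28.6% to 50%, except in the FGF family (4.17%). In the Wnt pathway 13 of 37 genes fell and 6 rose (median -0.19, 0.37 in TPM). The ligand trap SFRP1 (-0.72 ± 0.14, adjusted p = 0.00106), the receptor FZD2 (-0.71 ± 0.14, adjusted p = 0.00140) and the effector CTNNB1 (-0.42, 0.22 in TPM) fell. FZD2 stood at 264, 218 and 303 CPM in the chromatin libraries and 453, 369 and 464 CPM in the nucleoplasm libraries. The 3 Dishevelled genes, which relay the signal from Frizzled, rose, with DVL1 at 154, 178 and 171 CPM on chromatin against 74.8, 54.4 and 77.3 CPM in nucleoplasm (1.28 ± 0.13, adjusted p = 1.29e-05), DVL3 at 0.52, called in 5 of 6 leave-one-out fits and DVL2 at 0.32, the last called in 0 of 6 leave-one-out fits. In the Notch pathway 8 of 28 fell (28.6%), with a list median of -0.03 (0.55 in TPM), including the receptors NOTCH3 (-0.69 ± 0.16, adjusted p = 0.00363) and NOTCH2 (-0.35, 0.34 in TPM, called in 5 of 6 leave-one-out fits), and 3 (10.7%, and 1 without chromatin replicate 2) rose, including RFNG (1.47 ± 0.13, adjusted p = 5.48e-06), a Fringe glycosyltransferase that modifies the receptors. RFNG stood at 148, 153 and 149 CPM on chromatin against 57.0, 43.0 and 61.7 CPM in nucleoplasm. FGF genes rose in 12.5% and fell in 4.17% of 24, and 20 were not called, while 43.2% of all genes were called. The receptor FGFR3 rose (0.69 ± 0.12, adjusted p = 0.000467). Among 54 receptor phosphatases, plexins, semaphorins and LRP receptors 21 fell and 7 rose (median -0.31, 0.37 in TPM). PLXNB1, a semaphorin receptor, stood at 708, 680.4 and 735 CPM on chromatin against 241, 229 and 272 CPM in nucleoplasm (1.52 ± 0.12, adjusted p = 3.65e-06) with PLXNA3 (1.30 ± 0.13, adjusted p = 1.38e-05) beside it, and the phosphatases PTPRZ1 (-0.92 ± 0.16, adjusted p = 0.000525) and PTPRF (-0.74) fell. Eph receptors and ephrins fell in 8 of 16 (median -0.28, 0.29 in TPM), with EPHA4 at -0.61 ± 0.11, adjusted p = 0.000525, 0.07 in TPM.

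Most regulators of neuroectoderm, the part of ectoderm that gives neural tissue, did not differ beyond the threshold. Of 31 tested 21 were not called, 9 fell and 1 rose (median -0.04, 0.58 in TPM). The eye and forebrain regulator PAX6 stood at 149.6, 164 and 153 CPM in the chromatin libraries and 137, 149.6 and 140.5 CPM in the nucleoplasm libraries (0.13 ± 0.11, adjusted p = 0.365), and OTX2 at 162, 145 and 155 CPM on chromatin against 129.7, 144 and 135 CPM in nucleoplasm (0.18 ± 0.09, adjusted p = 0.137). The values of PAX6 overlapped and those of OTX2 all but touched. SOX2, a factor of neural and pluripotent cells, fell, at 332, 359.6 and 348 CPM on chromatin against 569.7, 555 and 559 CPM in nucleoplasm (-0.70 ± 0.10, adjusted p = 0.000151), with the simple-epithelium keratin KRT8 (-0.55, 0.12 in TPM). MSI1, an RNA-binding protein of neural progenitors, rose (0.53 ± 0.11, adjusted p = 0.00191). Of the other markers of ectoderm, CDH2 (-1.26), KRT18 (-0.76), LHX2 (-0.30, 0.37 in TPM, called in 4 of 6 leave-one-out fits) and SIX3 (-0.29, 0.38 in TPM, called in 4 of 6 leave-one-out fits) fell. ZIC2 (-0.04 ± 0.12, adjusted p = 0.832), NES (0.28 ± 0.11, adjusted p = 0.0536), SIX6, TFAP2A, DLX5 and GATA3 were not called. Of the markers of other cell types, 0 of 8 endoderm markers were in the table. Of the pluripotency markers, POU5F1 stood at 2.02, 1.43 and 1.60 CPM on chromatin against 1.77, 1.86 and 2.12 CPM in nucleoplasm (-0.19 ± 0.25, adjusted p = 0.570) and LIN28A at 858, 797 and 920.2 CPM on chromatin against 1156, 1005 and 1096 CPM in nucleoplasm (-0.34 ± 0.14, adjusted p = 0.0669), and neither these nor DPPA4 and L1TD1 were called. Of the 3 mesoderm markers tested, TBX6 rose (0.80) and KDR fell (-0.69, called in 5 of 6 leave-one-out fits). In libraries of bulk cells, fewer cells of a type and less RNA per cell cannot be told apart. Of 29 long neuronal genes 11 fell and 1 (0 without chromatin replicate 2) rose (median -0.25, 0.13 in TPM), with CNTNAP2 (-0.61 ± 0.12, adjusted p = 0.00135, 0.08 in TPM) and GPC6 (-1.16 ± 0.18, adjusted p = 0.000253) among the falls.

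Metabolic and replication groups were mixed. Cholesterol genes fell in 14 of 27 and rose in 5, with a median of -0.46 (0.21 on the TPM scale). The transcription factor genes of the pathway split, SREBF1 rising at 112, 96.6 and 104 CPM on chromatin against 46.4, 43.4 and 48.5 CPM in nucleoplasm (1.18 ± 0.15, adjusted p = 5.7e-05) and SREBF2 falling (-0.42 ± 0.12, adjusted p = 0.0139, 0.25 in TPM). Licensing genes of DNA replication fell in 8 of 21 and rose in 2 (0 without chromatin replicate 2) (median -0.12, 0.41 in TPM), with the helicase subunits MCM6 (-0.91 ± 0.13, adjusted p = 0.000106) and MCM2 (-0.61, 0.06 in TPM) among the falls. Mitochondrial carriers of the SLC25 family rose in 15.8% and fell in 7.89% of 38, and 29 were not called, while 43.2% of all genes were called. SLC25A29, a carrier of basic amino acids, stood at 1109, 1019 and 1128 CPM on chromatin against 531, 492 and 551 CPM in nucleoplasm (1.05 ± 0.12, adjusted p = 2.46e-05), and the ADP/ATP carrier SLC25A5 fell (-0.88 ± 0.19, adjusted p = 0.00240). Heat shock chaperones fell in 28 of 60 and rose in 10 (6 without chromatin replicate 2) (median -0.43, 0.20 in TPM), with HSP90AB1 (-0.84 ± 0.15, adjusted p = 0.000731) the most abundant of the cytosolic ones.

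**Figure D2:**
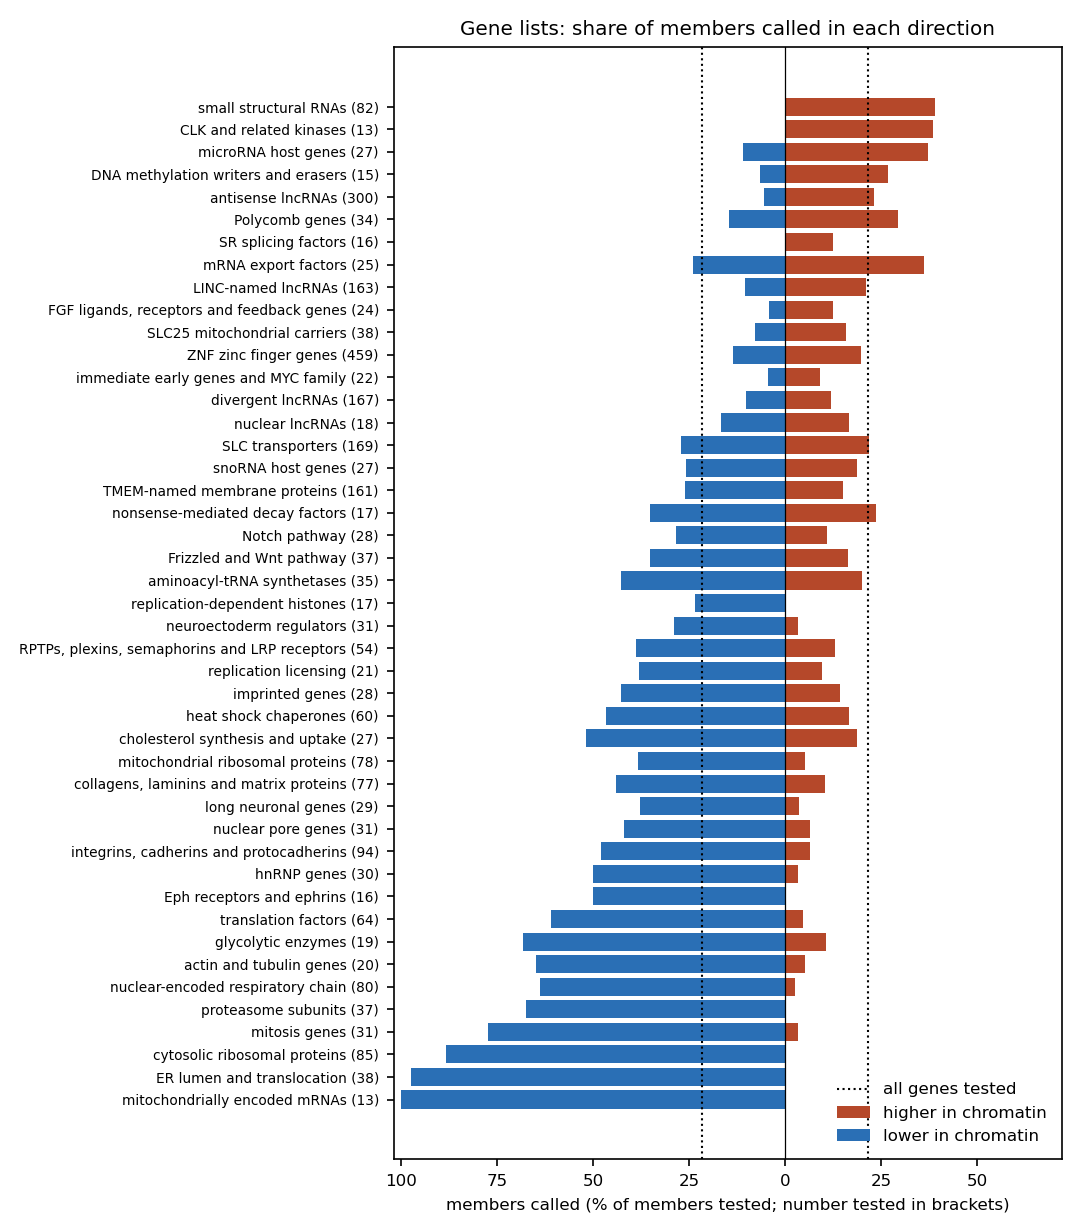
Share of the members tested (%) that rose on chromatin (right) or fell (left) in each gene list with at least 13 tested members (RPTPs are receptor-type tyrosine phosphatases); dotted lines give the shares of all genes, 21.5% and 21.7%. Mitochondrially encoded mRNAs (13 of 13 lower) and ER genes (37 of 38 lower) stand at one end, and small structural RNAs (32 of 82 higher) at the other; these shares follow TMM scaling, and on the TPM scale 96.4% of all calls were higher.

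Genes richer in G and C were more often higher on chromatin. Across 15185 genes with a GC value (96.9% of those tested), Spearman's rho between GC content and the difference was 0.28, a description across genes, which are not independent and share the same 6 libraries. The median GC content was 55.2% for genes that rose, 46.1% for genes that fell and 49.1% for the rest. With genes ordered by GC in 10 bins of equal size, in the lowest bin 7.94% rose and 30.4% fell, and the median difference was -0.29. In the highest bin 38.8% rose and 8.49% fell, and the median was 0.31. Protein-coding genes alone went from -0.41 to 0.27. The library means moved with it, since the GC content weighted by counts was 51.2% to 51.8% on chromatin and 49.9% to 50.3% in nucleoplasm. With a smooth GC term fitted within each library, 7425 genes were called (3466 higher and 3959 lower), and 5743 of 6597 retested calls were called in the same direction. Ribosomal proteins then fell in 72 of 85 genes and small structural RNAs rose in 40 of 82. Among the largest rises, KLHL17 was then at 1.98, RHPN1 at 1.78, MAMDC4 at 1.65 and MIR6765 at 2.11, all smaller than before. VN1R81P (2.79), ELOA-AS1 (2.26) and NPIPP1 (2.16) were larger. Of 186 printed genes 178 kept direction and call. Why single genes moved was not tested.

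**Figure D3:**
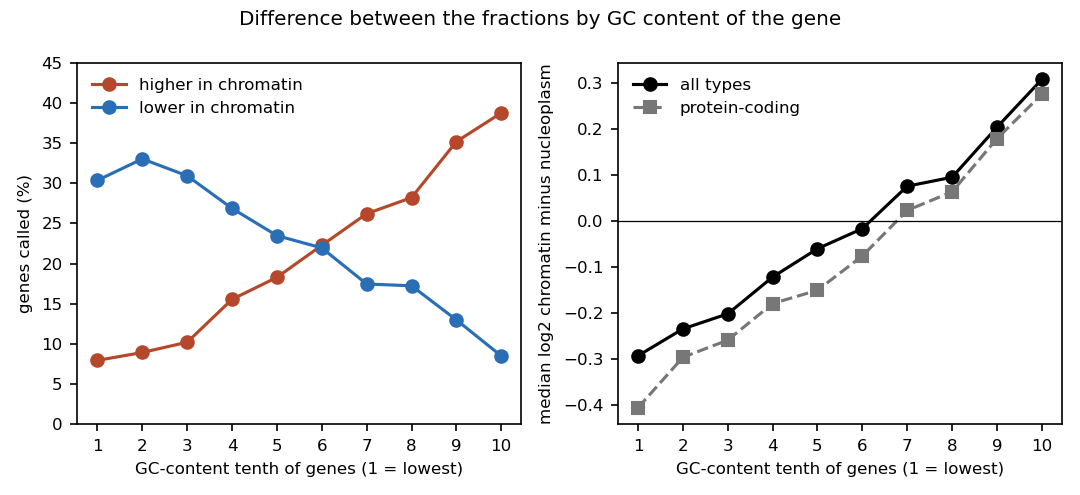
Left, share of genes called (%) in each of 10 equal bins of GC content, from lowest (1) to highest (10); right, median log2 difference, chromatin minus nucleoplasm, for all gene types and for protein-coding genes. The share that rose climbs from 7.94% to 38.8% and the share that fell drops from 30.4% to 8.49%.

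Exon number showed no steady trend over all genes (rho 0.03 across 15182 genes). Genes with 1 to 4 exons rose in 18.8% and fell in 17.7%. Genes with 5 to 7 exons in their longest model rose in 13.2% and fell in 29%. Genes with 18 or more exons rose in 29.6% and fell in 17.4%. In protein-coding genes alone the share that rose climbed with exon number, from 9.96% with 1 to 4 exons to 29% with 18 or more. Falls took 28.7% of coding genes with 1 to 4 exons, 31.4% with 5 to 7 and 17.6% with 18 or more. The median difference of coding genes was -0.22 with 1 to 4 exons and 0.08 with 18 or more. For gene span rho was -0.11 across 15182 genes. Of 3037 genes with the longest span 14.6% rose and 23.0% fell, against 22.5% and 18.5% of the 3037 shortest. Among protein-coding genes alone this did not hold: the longest rose in 14.4% and fell in 24.2%, and the shortest rose in 16.3% and fell in 29.4%.

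Isoforms that keep an intron were about 2-fold more abundant on chromatin, relative to the library and to coding isoforms of the same gene. Listed retained-intron transcripts took 2.66%, 2.63% and 2.57% of chromatin counts and 1.29%, 1.35% and 1.36% of nucleoplasm counts (means 2.62 ± 0.05% and 1.33 ± 0.03%, SD, n = 3; exact permutation test, two-sided, p = 0.1, the smallest that 3 against 3 allow). Coding transcripts took 57.6 ± 3.8% and 67.6 ± 1.4%. The ratio of retained-intron to coding counts, which does not depend on library scaling, was tested with limma in 635 genes. It rose on chromatin in 281 (44.3%) and fell in 2, BBS7 and NSUN7, with a median log2 difference of 1.24, and 576 of 635 values were positive. The chromatin libraries lay above all nucleoplasm libraries in 440 genes and below in 9. Of the 281 genes the gene sum rose in 106, fell in 55 and was not called in 120. Counts split between isoforms are estimates and less certain than gene sums. Leaving out 1 library gave 156 to 209 called genes in place of 283, with 156 without chromatin replicate 2, 168 without chromatin replicate 1 and 187 without nucleoplasm replicate 2.

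The genes named here stand at the large end of this change. They were picked after their values were seen, among genes with a mean of at least 100 counts in both classes, no overlap of the fractions and a call kept in each of 6 leave-one-out fits. In GPAA1, for a subunit of the GPI anchor transamidase, the retained-intron share of retained plus coding counts was 67.4, 99.1 and 73.0% in the chromatin libraries and 20.2, 20.0 and 29.8% in nucleoplasm (log2 ratio difference 4.77 ± 1.23, adjusted p = 0.0141). In QTRT1, for a subunit of the enzyme that puts queuosine into tRNA, the share was 84.2, 86.0 and 91.5% on chromatin and 50.5, 24.8 and 53.2% in nucleoplasm (3.26 ± 0.52, adjusted p = 0.00301). In NELFA, for a subunit of the factor that pauses RNA polymerase II, it was 24.4, 22.2 and 23.8% on chromatin and 1.59, 5.46 and 10.6% in nucleoplasm (2.63 ± 0.61, adjusted p = 0.00969), while the gene sum was not called (0.07 ± 0.11, adjusted p = 0.633). SEMA4C, a semaphorin, had 65.2, 70.4 and 55.9% on chromatin and 19.5, 33.3 and 17.8% in nucleoplasm (2.58 ± 0.54, adjusted p = 0.00702). In these 4 genes each chromatin library lay above each nucleoplasm library. EPB41, of the membrane skeleton, had 24.1, 50.3 and 30.5% on chromatin and 6.0, 9.64 and 10.1% in nucleoplasm (2.49 ± 0.54, adjusted p = 0.00804), with a gene sum at -0.02 ± 0.09, adjusted p = 0.888. EIF2B5, named above among the translation factors that rose, had 85.0, 91.5 and 89.2% on chromatin and 48.2, 67.5 and 60.1% in nucleoplasm (2.47 ± 0.59, adjusted p = 0.0108). REX1BD had 73.6, 84.7 and 78.7% on chromatin and 48.9, 28.3 and 44.9% in nucleoplasm (2.49 ± 0.38, adjusted p = 0.00274). Both of these genes rose also as a whole. Isoforms of known genes that carry no Ensembl transcript ID took 29.8 ± 0.6% of chromatin counts and 19.2 ± 0.2% of nucleoplasm counts (SD, n = 3). Their ratio to coding isoforms rose in 464 of 3830 genes (12.1%) and fell in 19, a count of 483 that was 48 to 131 when any 1 library was left out. SF3A2, of the spliceosome, kept its call in each such fit, with 84.9, 83 and 88.6% on chromatin and 47.6, 39.1 and 47.2% in nucleoplasm (2.89 ± 0.36, adjusted p = 0.00655).

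**Figure D4:**
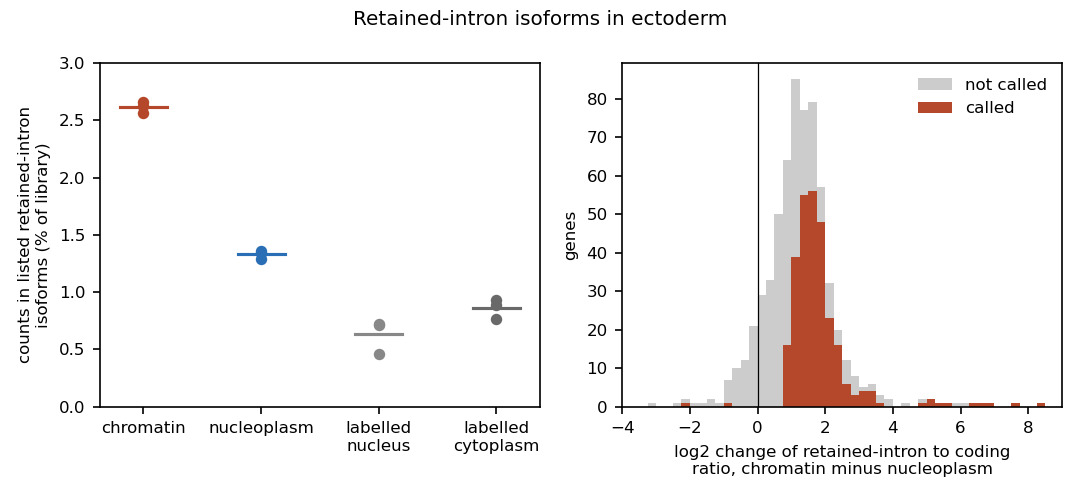
Left, counts in listed retained-intron isoforms (% of the library) in each ectoderm library, with the mean as a bar; right, number of genes by log2 change of the ratio of retained-intron to coding counts, chromatin minus nucleoplasm, for 635 genes. Chromatin libraries lie at 2.57% to 2.66% and nucleoplasm libraries at 1.29% to 1.36%, and 576 of 635 ratios are positive.

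The same comparison in undifferentiated hPSC and in endoderm shows where ectoderm departs. The difference between the fractions in ectoderm was tested against that in each of the others over 18 libraries and 11287 genes held in all 3 assemblies; the assembly changes with the cell type, so the pair cannot be told apart. Against hPSC 1300 genes differed (11.5%), 638 with a more positive value in ectoderm (5.65%) and 662 with a more negative one (5.87%). Against endoderm 3662 differed (32.4%), 2038 more positive (18.1%) and 1624 more negative (14.4%). With total counts the split against endoderm was 974 and 4002, with a median of -0.38 over all genes against 0.02, and against hPSC it was 628 and 675. The count against hPSC ranged from 765 to 2275 when 1 library was left out, with 2275 without hPSC chromatin replicate 3 and 840, 805, 811, 766 and 765 without ectoderm chromatin replicates 1 and 2, ectoderm nucleoplasm replicates 1 and 3 and hPSC nucleoplasm replicate 1.

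Messages for proteins of the ER lumen and translocation, and RNAs of mitochondria, were less low on chromatin in ectoderm than in endoderm. Over all 11287 genes 18.1% were more positive in ectoderm than in endoderm, and 974 genes were with total counts. The ER group had a median of -0.89 in ectoderm, -0.65 in hPSC and -2.13 in endoderm. Of its 38 genes 35 were less negative in ectoderm than in endoderm (28 with total counts). Mitochondrially encoded mRNAs had medians of -1.99, -1.38 and -3.64. Of the 13, 10 were less negative in ectoderm than in endoderm and 7 more negative than in hPSC, and both counts were the same with total counts. Integrins and cadherins had medians of -0.40, -0.37 and -1.37, and 35 of 56 were less negative in ectoderm than in endoderm (23 with total counts). Ribosomal protein genes set ectoderm apart from hPSC: their medians were -0.70, -0.23 and -0.75, and 37 of 85 were more negative in ectoderm than in hPSC, against 5.87% of all genes, with TMM factors and with total counts alike. Against endoderm 5 were more positive and 5 more negative, under the 18.1% and 14.4% of all genes. With total counts these were 0 and 28, while 4002 of all 11287 genes were more negative.

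**Figure D5:**
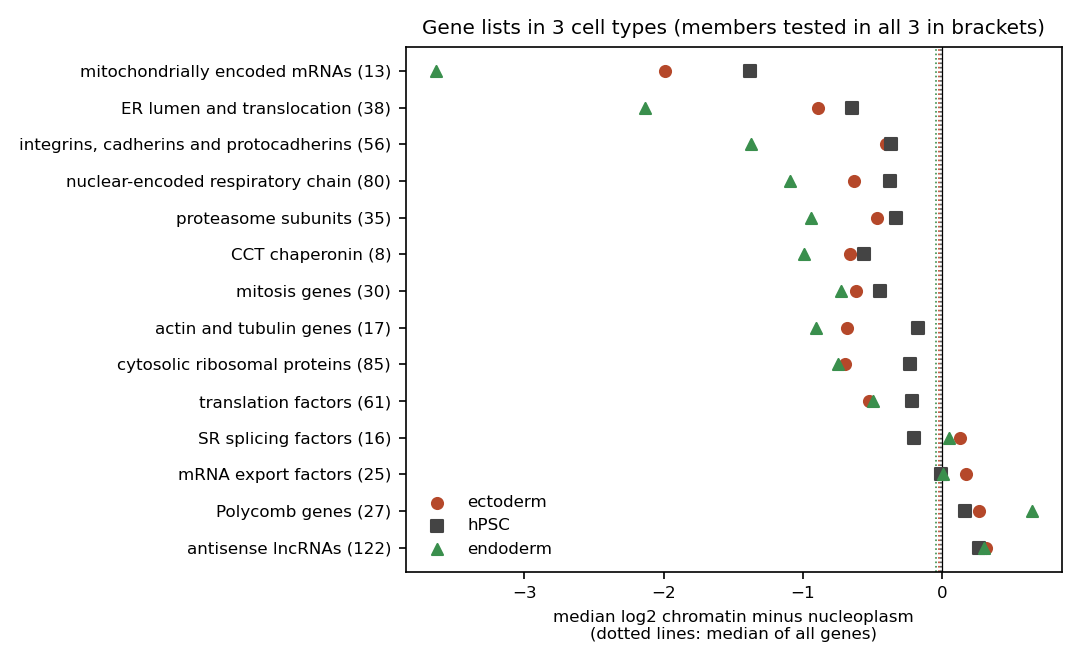
Median log2 difference, chromatin minus nucleoplasm, of 14 gene lists in ectoderm, hPSC and endoderm, over members tested in all 3; dotted lines are the medians of all genes. ER genes lie at -0.89 in ectoderm and -2.13 in endoderm, and ribosomal proteins at -0.70 in ectoderm and -0.23 in hPSC.

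Among the genes that departed most from hPSC were a microRNA host, genes of the cell cycle and a lysosomal enzyme. CPM in these sentences were scaled over the 18 libraries. MIR34AHG stood at 132, 151 and 137 CPM on chromatin and 57.7, 45.5 and 55.0 CPM in nucleoplasm in ectoderm, and at 0.360, 0.606 and 2.50 CPM on chromatin and 2.92, 3.66 and 3.92 CPM in nucleoplasm in hPSC. The difference of differences was 3.08 ± 0.45, adjusted p = 0.000332, and 4.26 without hPSC chromatin replicate 3. PRR11, a cell cycle gene, stood at 79.4, 68.9 and 84.3 CPM on chromatin and 79.7, 75.7 and 75.7 CPM in nucleoplasm in ectoderm, and at 438, 341 and 406 CPM on chromatin and 63.4, 68.6 and 50.0 CPM in nucleoplasm in hPSC (-2.70 ± 0.17, adjusted p = 6.45e-08). The fractions overlapped in ectoderm and lay far apart in hPSC. CCNG1, for a cyclin induced by p53, was lower on chromatin in ectoderm (-0.71) and higher in hPSC (1.71; -2.42 ± 0.20, adjusted p = 1.08e-06). IDS, for a lysosomal sulphatase, differed in the same sense (-2.28 ± 0.16, adjusted p = 1.56e-07), as did AC022140.1 (-2.25). AKAP9, a scaffold at the centrosome, was lower on chromatin in both, less so in ectoderm (2.49 ± 0.47, adjusted p = 0.00278). RN7SL1, the RNA of the signal recognition particle, stood at 42.5, 26.5 and 79.3 CPM on chromatin and 14.1, 30.5 and 16.0 CPM in nucleoplasm in ectoderm. In hPSC it stood at 33.1, 63.1 and 17.2 CPM on chromatin and 472, 1562 and 1025 CPM in nucleoplasm (6.07 ± 0.76, adjusted p = 9.35e-05). It has near-identical copies in the genome, so its counts are uncertain.

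Against endoderm, the largest departures included genes close to 0 in 1 of the cell types. RESF1, a regulator of retroelement silencing, was lower on chromatin in ectoderm, at 19.9, 29.8 and 15.8 CPM against 54.0, 62.5 and 57.5 CPM, and higher in endoderm, at 5.25, 1.97 and 6.65 against 0.423, 0.430 and 1.31 (-4.17 ± 0.86, adjusted p = 0.00112, and -4.88 without endoderm nucleoplasm replicate 3). MFAP4, for a matrix protein, went the opposite way, at 2.22, 1.13 and 2.41 against 0.699, 0.610 and 1.11 CPM in ectoderm and 17.5, 19.5 and 13.1 against 80.4, 83.5 and 72.4 CPM in endoderm (3.43 ± 0.34, adjusted p = 1.27e-06). Both kept their call in all 12 leave-one-out fits. HEATR5A (3.83 ± 0.71, adjusted p = 0.000472, and 7.33 without endoderm chromatin replicate 2) and NFXL1 (-3.85 ± 0.65, adjusted p = 0.000186, and -6.88 without endoderm nucleoplasm replicate 1) stood near 0 in endoderm, at no more than 1.91 and 1.25 CPM in any library. UBR1 (-4.48, and -2.53 without endoderm chromatin replicate 3) rested on an endoderm level of at most 0.578 CPM and COL21A1 (4.35, and 3.49 without ectoderm chromatin replicate 2) on an ectoderm level of at most 0.151 CPM, and they were called in 3 and 1 of 12 leave-one-out fits. FP236383.2 (9.44 ± 1.47, adjusted p = 0.000100, and 6.77 without ectoderm chromatin replicate 2), the lincRNA annotated within RNA45SN3 whose sign turned in the combined assembly, was higher on chromatin in ectoderm and lower in endoderm.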

How the data were processed

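Per the labels, RNA of ectoderm nuclei was extracted after lysis of nuclei into nucleoplasm and chromatin and sequenced. The authors deposited whole-number count tables per assembled transcript and a TPM table, used here for an alternative. The deposited counts are taken as rounded estimated counts (expected counts), since RSEM is named beside STAR and hg38 in the submitters' processing notes. Of the columns of counts, 1 matched no sample and was not used. Counts of transcripts with a gene were summed per gene (17728 genes), and the share without a gene is given with the libraries. Gene types and coordinates are from GENCODE release 29.

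Genes passing filterByExpr with a minimum count of 10 were fitted with edgeR 4.0.16 (R 4.3.3, TMM factors, quasi-likelihood test) over all 12 ectoderm libraries, which share 1 estimate of the spread. The contrast was chromatin minus nucleoplasm, with Benjamini-Hochberg adjustment over all genes tested and a threshold of 0.05. Differences between cell types came from 1 edgeR fit of 18 libraries on genes present in all 3 assemblies. Isoform ratios, log2 of 1 plus the class count over 1 plus the coding count, were tested with limma 3.58.1 in genes with a mean of at least 20 counts in both. The steps were tested on simulated data. Replicate numbers were not treated as pairs.

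Genes named in the text were the 12 largest rises and falls with at least 10 CPM, no overlap and a symbol in the deposited table, the 10 most abundant called in each direction, up to 3 members per list and direction by level, markers and control genes, and 4 per direction between cell types, and some of these are not reported here. The members, the 52 lists and these rules were chosen with earlier results of these data known. Alternatives were total counts, upper-quartile factors, DESeq2 1.42.0, no filter, 6 libraries alone, TPM with a pseudocount of 1, the combined assembly, Ensembl-listed transcripts alone, a replicate block, a 2-fold change and leaving out each library. A GC correction and other isoform pseudocounts and minimums were added after seeing the data.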

Additional observations from a re-analysis of the deposited data

Results flagged for a closer look

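Each result here is a difference between chromatin and nucleoplasm that differed between ectoderm and another cell type by a test of the difference itself. Against hPSC 1300 genes met this and against endoderm 3662. The named genes with a more positive value in ectoderm than in hPSC were RN7SL1 (6.07 on the log2 scale), MIR34AHG (3.08), FP671120.1 (3.05) and AKAP9 (2.49). MIR34AHG was at 4.26 without hPSC chromatin replicate 3. FP671120.1, also called in endoderm, passed the test against hPSC in 4 of 12 leave-one-out fits, and was at 0.93 without ectoderm chromatin replicate 2. Those with a more negative value than in hPSC were PRR11 (-2.70), CCNG1 (-2.42), IDS (-2.28) and AC022140.1 (-2.25). Against endoderm FP236383.2 (9.44), COL21A1 (4.35), HEATR5A (3.83) and MFAP4 (3.43) were more positive in ectoderm. UBR1 (-4.48), RESF1 (-4.17), NFXL1 (-3.85) and FP671120.1 (-3.60) were more negative. COL21A1 and UBR1 passed in 1 and 3 of 12 leave-one-out fits. Without endoderm chromatin replicate 3 UBR1 was at -2.53, and without replicate 2 HEATR5A was at 7.33. Without endoderm nucleoplasm replicate 1 NFXL1 was at -6.88, and without replicate 3 RESF1 was at -4.88. Without ectoderm chromatin replicate 2 FP236383.2 was at 6.77, COL21A1 at 3.49 and FP671120.1 at -5.72. Each of these rests on tables counted on different assemblies, which cannot be told apart from the cell type.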

How the results depend on the processing

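The count of 6771 called genes was 6548 with total counts, 6874 with upper-quartile factors, 6997 with DESeq2, 6829 with no filter, 8487 with 6 libraries alone, 8071 in TPM, 7115 on the combined assembly, 7425 with the GC correction and 5514 to 5994 without 1 library. It was 3871 over Ensembl-listed transcripts alone and 1924 when a 2-fold change was required, which calls fewer by construction. Requiring 2-fold gave 309 genes against hPSC and 1423 against endoderm. Leaving out 1 library gave 765 to 2275 against hPSC, 3121 to 3641 against endoderm, 156 to 209 for retained-intron ratios and 48 to 131 for new-isoform ratios (48 without chromatin replicate 1). With a replicate block these counts were 6463, 959, 3415, 263 and 275 in the same order (all called, hPSC, endoderm, retained, new). Same-numbered chromatin and nucleoplasm libraries correlated at 0.047, 0.085 and 0.04 in their deviations, so the numbers were not treated as pairs, although each library correlated best with its own number. Of 187 printed genes 104 kept direction and call in TPM, 55 kept direction only, 6 were called in TPM alone, and these changed sign: ATP5F1A (0.148), CNTNAP2 (0.0841), CTNNB1 (0.220), DANCR (0.0262), EEF2 (0.0729), EPB41 (0.730), EPHA4 (0.0714), FAT1 (0.109), KCNQ1OT1 (0.125), KRT8 (0.118), LHX2 (0.375), LIN28A (0.326), MCM2 (0.0572), NEAT1 (0.194), NOTCH2 (0.337), POU5F1 (0.361), RBBP7 (0.0334), RPL10 (0.00585), RPS3 (0.264), SIX3 (0.383), SREBF2 (0.249) and ZIC2 (0.643). Over Ensembl-listed transcripts alone EIF4EBP3 (-0.22), EPB41 (0.0147), ITGA7 (-0.16), KCNQ1OT1 (0.0427), POU5F1 (0.00519), PRC1 (-0.24) and TUBG2 (-0.43) changed sign, and on the combined assembly FP236383.2 did (-1.83). With total counts EPB41 (0.169), KCNQ1OT1 (0.0333) and ZIC2 (0.153) did, with the GC correction EPB41 (0.0922) and NELFA (-0.178), and with no filter NELFA (-0.00502). Leaving out 1 library gave values on both sides of 0 for EPB41 (-0.126 to 0.0125), NELFA (-0.0190 to 0.123) and ZIC2 (-0.136 to 0.0327). EPB41, KCNQ1OT1, LIN28A, NEAT1, NELFA, POU5F1, RPS3 and ZIC2 were not called with the settings of the report. The cause of these changes was not tested. Genes near the minimum count, and isoform classes, are limited by depth, 8473955 counts in the shallowest library.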

Other observations

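Types outside the protein-coding class had a smaller share of falls on chromatin than coding genes (25.2%), and several, though not all, a larger share of rises than coding genes (19.7%); these differences between types were not tested. Antisense genes by GENCODE type rose in 25.3% and fell in 4.49% of 557, and lincRNA genes rose in 22.8% and fell in 7.60% of 605. Genes awaiting experimental proof of a transcript (TEC) rose in 43.0% of 107, and transcribed unitary pseudogenes, former coding genes without an intact copy, in 51.7% of 29. Processed pseudogenes, copies made from spliced RNA, rose in 21.4% of 257, those that are transcribed rose in 14.3% and fell in 15.9% of 63, and bidirectional promoter lncRNAs rose in 14.3% of 21. These shares stand beside 21.5% and 21.7% for all genes.

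Membrane families without a shared function were called at shares near those of all genes (21.5% rose and 21.7% fell). SLC transporters rose in 37 (21.9%) and fell in 46 (27.2%) of 169, and TMEM genes rose in 24 (14.9%) and fell in 42 (26.1%) of 161. TMEM259 (1.32) was the most abundant TMEM gene that rose. Immediate early and MYC family genes, which answer signals within minutes, rose in 9.09% and fell in 4.55% of 22, under the shares of all genes. The other 19 were not called.

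Of the 3368 genes that rose on chromatin, the mean of the libraries labelled nucleus lay between the fractions for 1075 (31.9%) and below both for 1930 (57.3%). Of the 3403 that fell, it lay between for 688 (20.2%) and above both for 2015 (59.2%). The mean of the libraries labelled cytoplasm lay between for 1043 (31.0%) and below both for 2250 (66.8%) of the genes that rose. For those that fell it lay between for 676 (19.9%) and above both for 2090 (61.4%). Libraries of both labels went against them on MALAT1 and mitochondrial mRNAs, as given above.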
